A study of Mus musculus with 6 samples.

Results

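The genes described here encode the main inducible and constitutive heat shock chaperones of the cytosol and mitochondria, together with heat shock factor 1. In the mouse genome they lie on chromosomes 1 (Hspd1, Hspe1), 5 (Hsph1), 8 (Dnajb1), 9 (Hspa8), 12 (Hsp90aa1), 15 (Hsf1) and 17 (Hspa1a, Hspa1b, Hsp90ab1). They were chosen by symbol (Hspa1a, Hspa1b, Hspa8, Hsph1, Dnajb1, Hsp90aa1, Hsp90ab1, Hspd1, Hspe1 and Hsf1), and all 10 were among the 43074 gene symbols of the count table. All 10 also passed the filter on low counts, which left 17433 genes for testing. Expression was measured by RNA sequencing in C2C12, a mouse myoblast line that fuses into myotubes after a change of serum, labelled as wild type and as 1 batch throughout. The 3 groups were untreated cells at day 0, cells after 4 days of differentiation in horse serum with the vehicle DMSO, and cells after 4 days of differentiation with 1 mM 4-phenylbutyric acid (4-PBA). Each group had 2 libraries of 1 cell line, and the labels do not say whether they came from separate cultures, so p-values measure only the spread between these libraries. Day 0 differs from day 4 in time, medium, serum and vehicle together, and the parts of these cannot be told apart.

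Heat shock proteins bind unfolded or partly folded proteins and use ATP to help them fold, and many of their genes are switched on by heat shock factor 1 when unfolded proteins accumulate. In muscle cells, Hsp90 and Hsp70 machines also help newly made myosin to fold and sarcomeres to assemble. 4-PBA is known as a chemical chaperone, a small molecule that can stabilise protein folding directly, and as an inhibitor of histone deacetylases.

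The libraries held 47908926 to 74697397 counts each, and mitochondrially encoded genes took 3.14% to 3.43% of them. Markers of the line followed the labels: 6 of 7 myoblast and myotube markers were called higher with DMSO than at day 0, among them Myog, the myogenin gene, which rose from 7.90 to 287 CPM. The other marker, Myf5, was called lower, from a mean of 50.2 to 22.9 CPM. The 3 proliferation markers fell in the same comparison, Mki67 from 411 ± 0.969 to 139.5 ± 14.5 CPM (SD, n = 2), Top2a from 530.2 ± 11.7 to 151 ± 18.2 CPM and Ccnd1 from 599 ± 2.6 to 136 ± 5.85 CPM. With 4-PBA against DMSO, Ccnd1 was called lower (log2 fold change -0.29, edgeR adjusted p 4.38e-07), while Mki67 (0.19, adjusted p 0.163) and Top2a (0.25, adjusted p 0.299) were higher in both libraries without being called. Of the 7 myoblast and myotube markers, Des (-0.11, adjusted p 0.00881) and Mymk (-0.17, adjusted p 0.0134) were called lower with 4-PBA and the other 5 were not called. The part of these shifts in the chaperone results was not tested. A list of 8 markers of leukocytes, endothelial cells, adipocytes and epithelium summed to 0.485 to 0.946 CPM in every library, with Krt18 and Epcam at 0 counts in 4 and 3 of the 6 libraries.

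Promoter windows from RefSeq (GRCm38.p6, from 250 bases before to 50 bases after a start site) were available for 6 of the genes: Hspa1a, Hspa1b, Hsph1, Dnajb1, Hspd1 and Hspe1. They were searched on both strands for the heat shock element, the site that heat shock factors bind, made of inverted units of GAA. The 2-unit form was spelled GAANNTTC or TTCNNGAA, and the 3-unit form went on from these with NNGAA or NNTTC, so every 3-unit match holds 2-unit matches. The 3-unit form was found for 3 of the 6 genes and for 0.662% of all 27025 genes with a window, and the 2-unit form for 5 of the 6 genes and 17.0% of all genes. The 6 genes are not independent, so these shares are not a measure of enrichment. Hspd1 and Hspe1 hold the same site, and Hspa1a and Hspa1b are near copies. The 3-unit match of Hsph1 lay after its starts. A match is a description of letters and not of a bound site. Only exact spellings were counted, so an element with a differing base in a unit was missed.

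Hspd1 and Hspe1 lie head to head on chromosome 1 and share 1 promoter, so the same element is read from either strand. It is shown because these genes had the largest falls below, and a match of Hsph1 beside it because that gene fell next most. For the pair, the 18 bases in capitals hold 2 overlapping 3-unit matches, and the stretch is chr1:55088053-55088082 in GRCm38.p6. The Hsph1 stretch is chr5:149636351-149636380, with its 2-unit match in capitals.
Hspe1, plus strand: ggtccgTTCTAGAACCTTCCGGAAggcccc
Hspd1, minus strand: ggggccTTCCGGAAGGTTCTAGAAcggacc
Hsph1, minus strand: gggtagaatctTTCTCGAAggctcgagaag

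The element began 89 bases before the Hspe1 start and 144 bases before 1 of the 2 Hspd1 starts. The window of the other Hspd1 start held no match. For Hsph1, which also has 2 starts, the match in capitals began 33 and 54 bases before them, and a 3-unit match lay 36 and 15 bases after them. No exact match of either form was found in the windows of Dnajb1, which does not show that it lacks an element.

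Hspa1a and Hspa1b, the stress-inducible Hsp70 genes, lie close together on chromosome 17, and their promoters are shown because the genes are near copies whose values nevertheless differ. The 250 bases before each start follow, both on the minus strand, with the only 2-unit match of each window in capitals, chr17:34972157-34972406 for Hspa1a and chr17:34959239-34959488 for Hspa1b.
Hspa1a: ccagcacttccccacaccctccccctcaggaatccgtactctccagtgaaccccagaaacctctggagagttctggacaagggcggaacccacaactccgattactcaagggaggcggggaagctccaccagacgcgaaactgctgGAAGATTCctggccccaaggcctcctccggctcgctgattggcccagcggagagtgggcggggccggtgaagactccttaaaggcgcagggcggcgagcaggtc
Hspa1b: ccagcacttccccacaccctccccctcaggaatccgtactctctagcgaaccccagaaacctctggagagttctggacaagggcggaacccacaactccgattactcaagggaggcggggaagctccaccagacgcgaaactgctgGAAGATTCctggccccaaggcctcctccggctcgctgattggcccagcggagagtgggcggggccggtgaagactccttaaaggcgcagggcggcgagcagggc

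The windows of these genes differed at 4 of 300 positions, counted from the 5′ end of the window and written from Hspa1a to Hspa1b as C44T, T47C, T249G and C276T. The element in capitals was identical. The coding sequences in GENCODE M21 were 99.4% identical, and 31.9% of the 100-base windows of the Hspa1a coding sequence did not occur exactly in Hspa1b. All 711 such windows of the Hspa1a 3′ untranslated region were absent from it. How reads common to both were assigned is not given in the sources used here. The separate values of Hspa1a and Hspa1b are therefore uncertain, and their sum is given beside them. If such reads were left out, the sum is too low as well.

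During differentiation without the drug, 9 of the 10 genes fell and none was called higher. Across all genes tested, 66.3% were called in this comparison, 33.8% higher and 32.6% lower. The median log2 fold change of the 10 genes was -0.64, against 0.023 over all genes tested. In a bulk sample, fewer cells of a type and less RNA per cell cannot be told apart. Together the 10 genes took 0.886% and 0.895% of the counts of the day 0 libraries and 0.552% and 0.537% with DMSO. Expression is given in CPM, which are counts scaled to a common library size after TMM normalisation, and a gene was called at an adjusted p-value under 0.05 in edgeR's quasi-likelihood test.

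**Figure D1:**
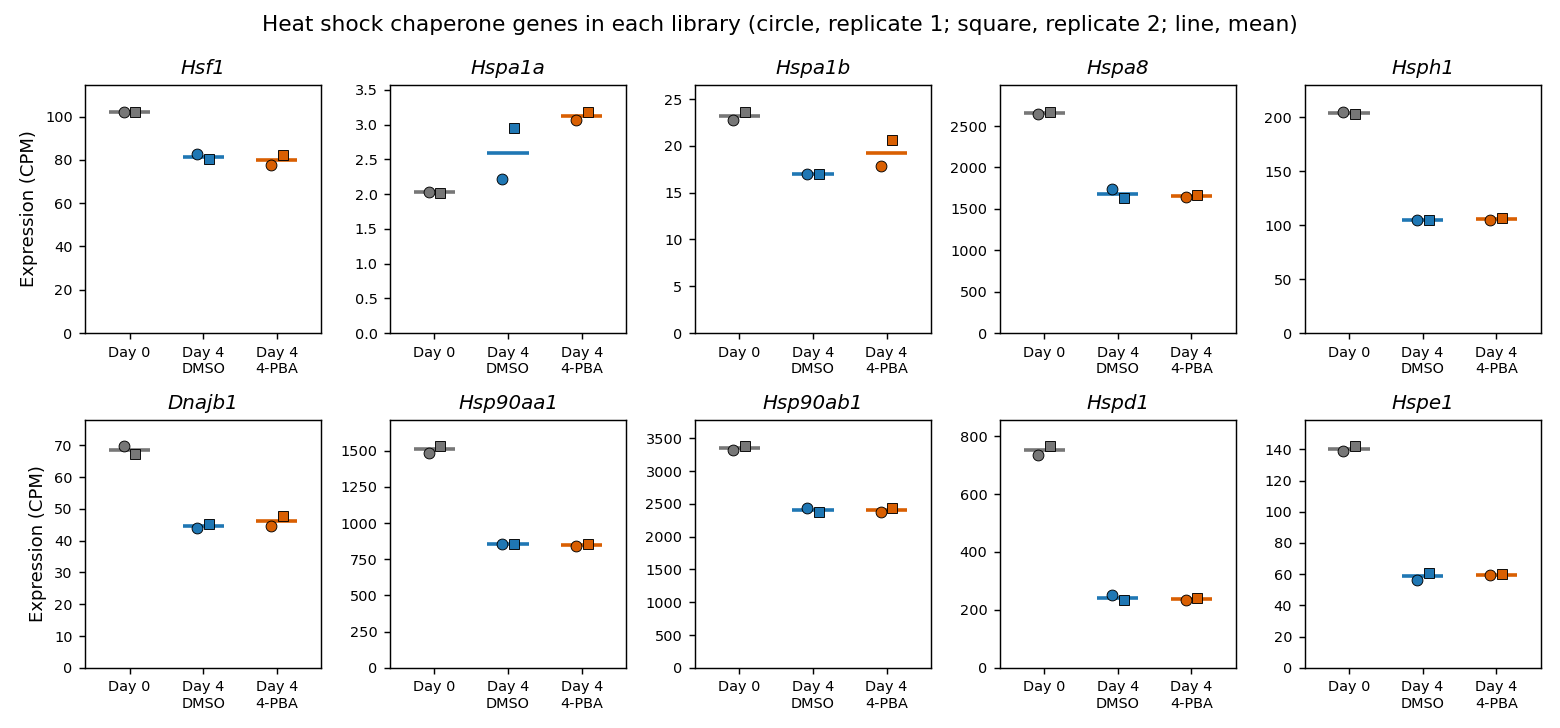
Expression of each heat shock chaperone gene in CPM (y axis from 0) in the 6 libraries by group, with a circle for replicate 1, a square for replicate 2 and a line at the group mean. Both day 4 groups lie below day 0 for 9 genes and above it for Hspa1a. The DMSO and 4-PBA libraries overlap, for instance near 854 and 851 CPM on average for Hsp90aa1, except for Hspa1a and Hspa1b. For these genes the 4-PBA libraries lie higher.

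The smallest of the 9 falls was that of the factor itself. Hsf1, which encodes heat shock factor 1, stood at 102.2 and 102.3 CPM at day 0 and at 82.7 and 80.2 CPM with DMSO. Both DMSO libraries were lower, by 20.3% (log2 fold change -0.33, SE 0.0399, adjusted p 5.62e-09).

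Among the Hsp70 genes, Hspa8 encodes the constitutive cytosolic Hsc70 and was the most abundant. It stood at 2652 and 2676 CPM at day 0 and at 1736 and 1626 CPM with DMSO, lower in both libraries. The log2 fold change was -0.66 (SE 0.0282, adjusted p 1.02e-20). Hsph1, an Hsp110 protein that releases nucleotide from Hsp70, fell from 205.5 and 203.6 CPM to 104.4 and 104.8 CPM, a fall of 48.8% (-0.97, SE 0.0339, adjusted p 1.48e-23). Dnajb1, the J-domain partner that hands substrates to Hsp70 and stimulates its ATPase, fell from 69.7 and 67.4 CPM to 44.0 and 45.3 CPM (-0.62, SE 0.0478, adjusted p 9.77e-14). For these 3 genes the DMSO libraries lay close together and well under day 0. GENCODE M21 holds 6 other genes with a stretch nearly identical to Hspa8, none of which has counts under its own symbol here, so reads from them could be part of the Hspa8 value.

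The inducible Hsp70 copies did not follow 1 direction. Hspa1b fell from 22.7 and 23.7 CPM to 16.97 and 16.97 CPM (log2 fold change -0.45, SE 0.0740, adjusted p 1.75e-06). Hspa1a, with only 99 to 219 counts per library, stood at 2.04 and 2.02 CPM at day 0 and at 2.22 and 2.95 CPM with DMSO, above day 0 in both libraries but not called (0.36, SE 0.188, adjusted p 0.0959). Without DMSO replicate 1 its log2 fold change was 0.54 and was called (adjusted p 0.0281, in a range up to 0.676 over the alternatives), and without DMSO replicate 2 it was 0.13. The summed counts of both copies fell by 0.37 on the log2 scale (SE 0.0702, adjusted p 2.09e-05). Exons of Hspa1a also overlap Gm20481 on the opposite strand in GENCODE M21.

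Both cytosolic Hsp90 genes fell, the stress-inducible alpha form more than the constitutive beta form. Hsp90aa1 stood at 1487 and 1531 CPM at day 0 and at 854.0 and 854.5 CPM with DMSO, a log2 fold change of -0.82 (SE 0.0273, adjusted p 3.07e-24). Hsp90ab1 stood at 3322 and 3380 CPM at day 0 and at 2439 and 2385 CPM with DMSO (-0.47, SE 0.0258, adjusted p 5.16e-18). The 95% intervals of these changes, -0.88 to -0.77 and -0.53 to -0.42, did not overlap. The coding sequences of the pair were 75.7% identical and shared no 100-base window, while 3 other genes held a stretch nearly identical to Hsp90aa1.

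The mitochondrial chaperonin genes had the largest falls of the 10. Hspd1, which encodes Hsp60, the barrel in which matrix proteins fold, stood at 737 and 765 CPM at day 0 and at 251 and 234 CPM with DMSO. That is 3.10-fold lower (log2 fold change -1.63, SE 0.0337, adjusted p 5.84e-28). Hspe1, which encodes Hsp10, the lid of that barrel, stood at 139 and 142 CPM at day 0 and at 56.1 and 61.0 CPM with DMSO, 2.40-fold lower (-1.26, SE 0.0417, adjusted p 2.56e-24). All DMSO libraries lay far under day 0 for both. Their exons overlap each other on opposite strands in GENCODE M21, and whether the counting used strand is not given in the sources used here, so the separate values are uncertain to that extent. Each also had 1 near-identical copy elsewhere.

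For all 10 genes the day 0 and DMSO libraries did not overlap, as for 81.9% of all genes tested. With 2 libraries against 2, an exact permutation test of a single gene cannot give a two-sided p below 0.333, so the adjusted p-values rest on the spread shared across genes.

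Between 4-PBA and DMSO at day 4, none of the 10 chaperone genes was called. The background was 4.9% of all genes tested, 2.13% higher and 2.78% lower, so 0 of 10 is near it. Only Hspa1b had an unadjusted edgeR p under 0.05 (1 of 10 genes, against 16.7% of all genes), and limma-voom and the DESeq2 Wald test also called 0 of 10 with 1 unadjusted p under 0.05. The median log2 fold change of the 10 genes was 0.0029, against 0.0021 over all genes.

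**Figure D2:**
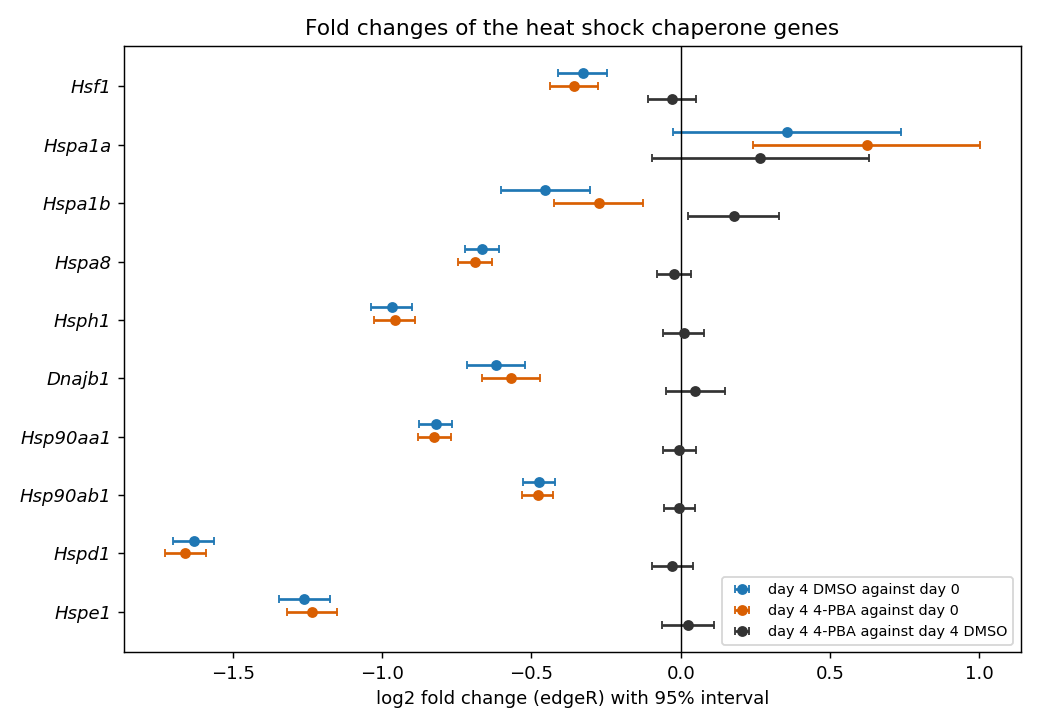
Log2 fold changes from edgeR with 95% intervals (x axis) for each gene (y axis) in the 3 comparisons. The black points, 4-PBA against DMSO, sit near 0 with narrow intervals except for Hspa1a (-0.096 to 0.63) and Hspa1b (0.026 to 0.33), and the blue and orange points, each against day 0, sit left of 0 for every gene but Hspa1a.

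For 8 of the genes the interval of the difference was narrow. Hsp90aa1 stood at 854.0 and 854.5 CPM with DMSO and at 844.7 and 858.2 CPM with 4-PBA, and the 95% interval of the difference was -4.1% to 3.6%. Hsp90ab1 (-3.8% to 3.4%), Hspa8 (-5.4% to 2.4%) and Hsph1 (-4.1% to 5.7%) were similar, and the libraries of the groups overlapped for each. With 4-PBA these 3 stood at 2379 and 2432, 1643 and 1665, and 104.4 and 106.3 CPM in that order. The remaining members also overlapped the DMSO values given above. Hsf1 stood at 77.4 and 82.2 CPM and Dnajb1 at 44.6 and 47.7 CPM, and the mitochondrial pair at 233 and 243 CPM for Hspd1 and 59.5 and 59.9 CPM for Hspe1. The intervals were -7.4% to 3.7% for Hsf1, -3.4% to 10.8% for Dnajb1, -6.5% to 2.8% for Hspd1 and -4.2% to 8.1% for Hspe1. The adjusted p was 0.702 or more for all 8, which does not show that the levels were equal but limits the size of any difference between these libraries.

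The inducible Hsp70 copies were the exception in size. Hspa1b stood at 16.97 and 16.97 CPM with DMSO and at 17.8 and 20.6 CPM with 4-PBA, and both 4-PBA libraries were higher. Its log2 fold change of 0.18 (SE 0.0746, unadjusted p 0.0231, adjusted p 0.197) dropped to 0.070 when the second 4-PBA library was left out and came to 0.28 when the first one was. Hspa1a stood at 2.22 and 2.95 CPM with DMSO and at 3.06 and 3.19 CPM with 4-PBA. Its log2 fold change of 0.27 (SE 0.178, adjusted p 0.501) came to 0.081 when the first DMSO library was left out and to 0.49 when the second one was. Groups that do not overlap were found for these 2 of the 10 genes and for 45.5% of all genes tested. The sum of the copies differed by 0.19 (SE 0.0705, adjusted p 0.125) and was not called either.

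Against day 0, the log2 fold changes with 4-PBA were close to those with DMSO except for Hspa1a and Hspa1b. The comparisons share the day 0 libraries. edgeR called all 10 genes, 9 lower and 1 higher, where 65.6% of all genes were called, 33.2% higher and 32.4% lower. The log2 fold change was -1.66 for Hspd1, -1.23 for Hspe1, -0.96 for Hsph1, -0.83 for Hsp90aa1 and -0.69 for Hspa8. It was -0.57 for Dnajb1, -0.48 for Hsp90ab1 and -0.36 for Hsf1. Hspa1a was called higher in this comparison (0.62, SE 0.186, adjusted p 0.00385) and Hspa1b lower (-0.28, SE 0.0738, adjusted p 0.00140). With DMSO against day 0 these values were 0.36, not called, for Hspa1a and -0.45 for Hspa1b. The call of Hspa1b was lost without 4-PBA replicate 1 (-0.17, adjusted p 0.100, the highest over its alternatives, which reached down to 2.67e-04). The summed copies were lower by a smaller amount (-0.18, SE 0.0700, adjusted p 0.0253), and without day 0 replicate 2 (-0.15, adjusted p 0.169) or 4-PBA replicate 1 (-0.083, adjusted p 0.424) they were not called.

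Ratios within a library do not depend on scaling between libraries. In the day 0 libraries 30.9% and 31.2% of the counts of both Hsp90 genes were Hsp90aa1. The DMSO libraries gave 25.9% and 26.4%, and the 4-PBA libraries 26.2% and 26.1%. The beta form was a larger part of the pair in every day 4 library. For every 100 counts of Hspd1 the day 0 libraries held 18.8 and 18.6 counts of Hspe1. The DMSO libraries held 22.3 and 26.1 and the 4-PBA libraries 25.5 and 24.7, so the DMSO replicates spanned the 4-PBA values.

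**Figure D3:**
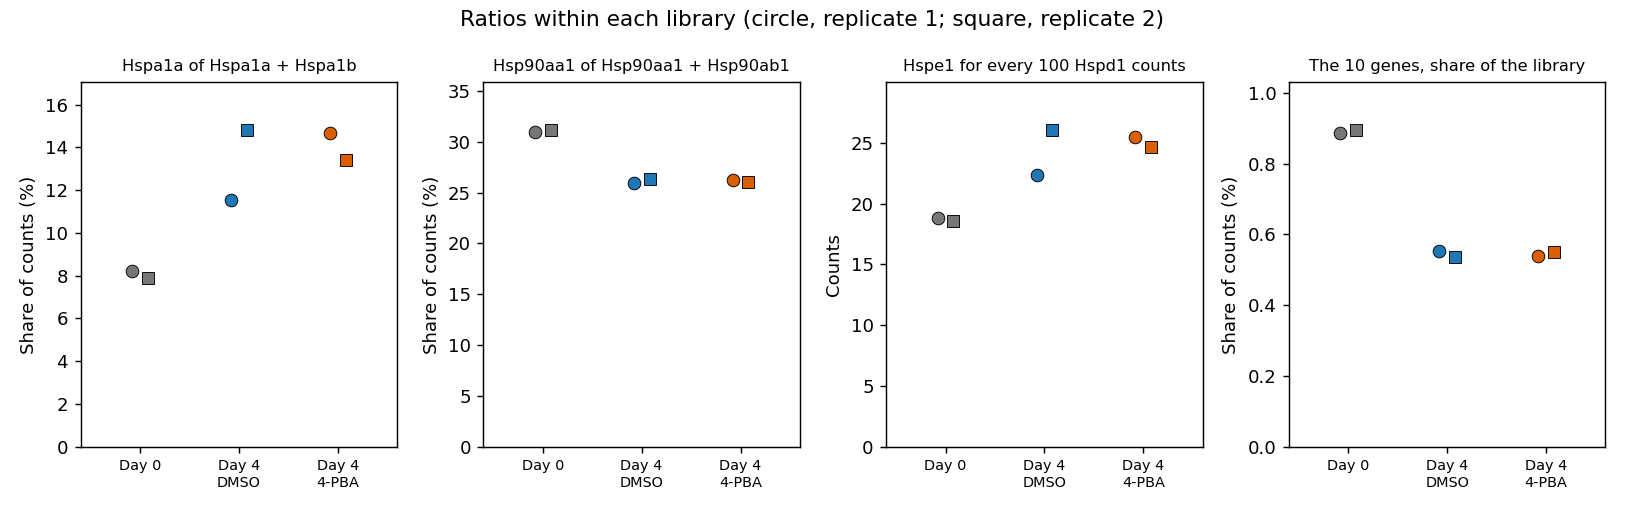
Shares and ratios of counts within each library (y axes from 0) by group, with a circle for replicate 1 and a square for replicate 2. From left to right, Hspa1a is a larger share of the inducible copies at day 4, Hsp90aa1 is at most 26.4% of the Hsp90 pair against at least 30.9% at day 0, Hspe1 is higher relative to Hspd1, and the 10 genes are at most 0.552% of a day 4 library.

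Hspa1a made up 8.22% (95% exact Clopper-Pearson interval 6.73% to 9.92%) and 7.87% (6.67% to 9.21%) of the counts of both inducible copies at day 0. The DMSO libraries gave 11.6% (9.81% to 13.5%) and 14.8% (13.04% to 16.7%). The 4-PBA libraries gave 14.7% (12.8% to 16.7%) and 13.4% (11.7% to 15.3%). These intervals cover counting error only. Day 4 shares lay above day 0 in all 4 libraries, while the DMSO and 4-PBA shares overlapped. In each of these ratios a comparison of day 0 with either day 4 group cannot give an exact two-sided permutation p below 0.333.

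Levels can be compared between genes only per length, here as CPM per kilobase of all annotated exons in GENCODE M21. That length joins the exons of all annotated transcripts, from 7266 bases for Hsph1 and 7099 for Hsf1 to 2803 for Hspa1b. Which transcripts the cells made was not measured, so a gene with unused exons is placed too low. The order depends on these lengths, and the SDs do not cover that error. At day 0 the order was Hsp90ab1 (1118 ± 13.7 CPM per kb, SD, n = 2), Hspa8 (619 ± 3.96), Hsp90aa1 (384 ± 7.89), Hspd1 (284 ± 7.68), Hspe1 (95.2 ± 1.57), Hsph1 (28.2 ± 0.186), Dnajb1 (21.4 ± 0.512), Hsf1 (14.4 ± 0.00832), Hspa1b (8.28 ± 0.237) and Hspa1a (0.684 ± 0.00340). No neighbours in this order overlapped at day 0. The same order held for the group means at day 4 with DMSO and with 4-PBA, but the neighbours Hsph1 (14.4 and 14.6 CPM per kb) and Dnajb1 (13.9 and 14.9 CPM per kb) overlapped with 4-PBA. The constitutive chaperones stood far above the inducible Hsp70 copies in every group. How reads common to Hspa1a and Hspa1b were counted is not given, so both copies could be placed too low.

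The wider chaperone network was described with 7 lists of 75 genes, all of which were tested. Between DMSO and day 0, 64 of the 75 were called, 13 higher and 51 lower, with a median log2 fold change of -0.38. That is 85.3% of the network genes, beside 66.3% of all genes tested (33.8% higher and 32.6% lower), whose median was 0.023. Against the same day 0 libraries, 4-PBA gave 66 calls, 14 higher and 52 lower, with a median of -0.34. That is 88% of them, beside 65.6% of all genes (33.2% higher and 32.4% lower) and a median of 0.018. The values of single lists that follow are for DMSO against day 0 unless another comparison is named. The cytosolic chaperonin, a ring that folds actin and tubulin, and its partner prefoldin made up 1 list. With DMSO against day 0, 13 of its 14 genes fell and 1 rose, with a median of -0.59. The chaperonin subunit genes Cct7 (-0.84, SE 0.0320), Cct6a (-0.84, SE 0.0310) and Cct3 (-0.74, SE 0.0306) were among those that fell. Exons of Cct6a and Cct7 overlap other genes on the opposite strand.

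**Figure D4:**
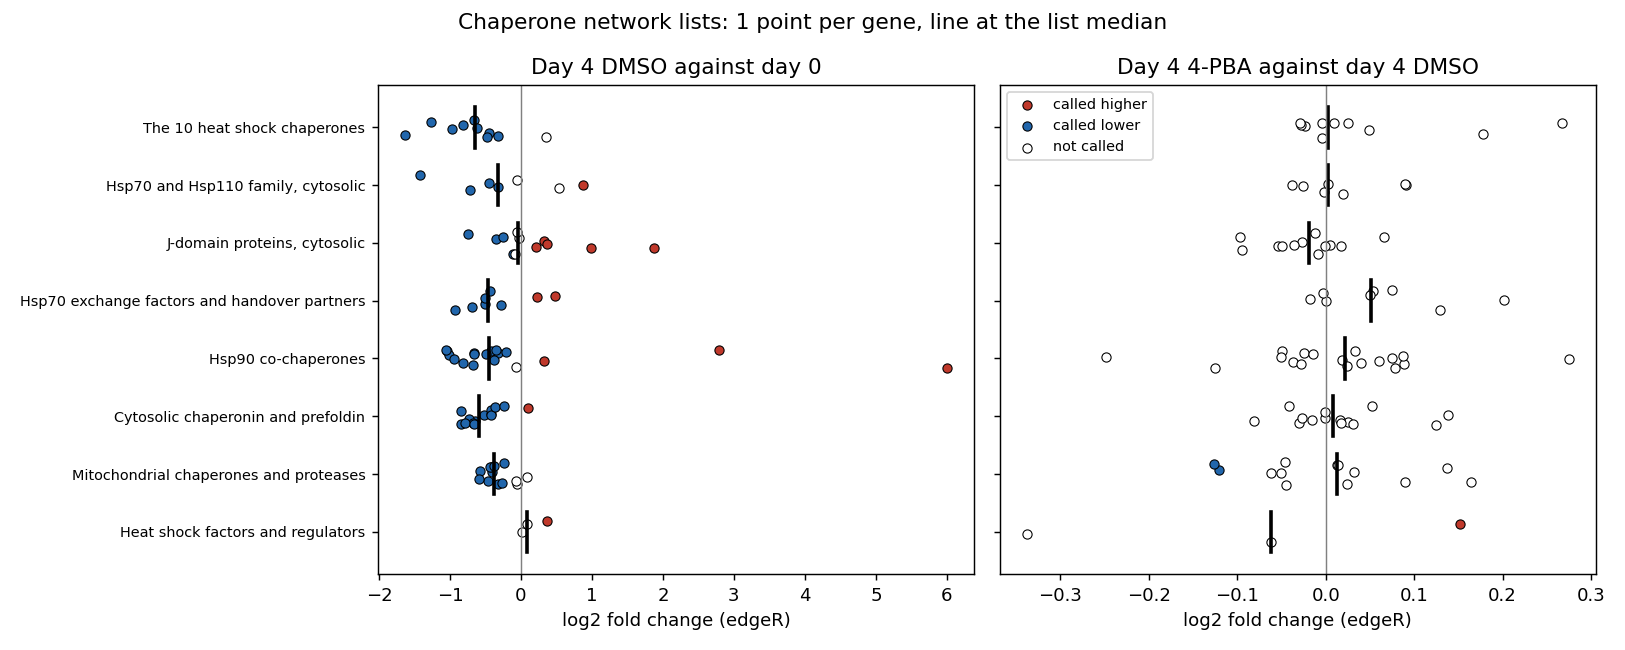
Log2 fold changes from edgeR (x axis, with different ranges in the panels) of the 10 chaperones and of each gene in the 7 lists (y axis), filled where called, with a line at the list median. In the left panel, DMSO against day 0, most points lie below 0 and Unc45b (6.001) and Smyd1 (2.79) stand far to the right, and in the right panel, 4-PBA against DMSO, 3 points are filled and the median of every list lies between -0.062 and 0.052.

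The Hsp90 co-chaperones held the widest range, with 14 of 18 genes lower and 3 higher, beside 32.6% and 33.8% of all genes. Fkbp4, an immunophilin of steroid receptor complexes, was 2.05-fold lower (-1.04, SE 0.0332), and Nudc fell by 0.94 (SE 0.0345) on the log2 scale. Smyd1, a muscle methyltransferase that works with Hsp90 in myosin assembly, rose 6.91-fold, from 10.9 and 10.8 CPM to 75.4 and 74.3 CPM. Unc45b, the myosin chaperone of striated muscle, was singled out after its values were seen and rose from 0.535 and 1.01 CPM to 48.9 and 55.5 CPM (6.001, SE 0.126, adjusted p 4.83e-19), although its exons overlap antisense genes. Its ubiquitous paralog Unc45a fell from a mean of 46.7 to 36.6 CPM (-0.35, SE 0.0542, adjusted p 5.39e-07).

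Of the 12 J-domain proteins, 5 were higher and 4 lower, so the 75% called was near the 66.3% of all genes. Dnajb5 rose 3.66-fold (1.87, SE 0.0544) and Dnaja4 rose 1.98-fold (0.99, SE 0.0679, with exons overlapping Wdr61 on the opposite strand), while Dnajc2, a ribosome-bound member, fell by 0.75 (SE 0.0432) on the log2 scale. Of the other cytosolic Hsp70 and Hsp110 genes, 4 of 7 fell and 1 rose, and this 71.4% called was also near that background. Hspa14 (-0.71, SE 0.0465) and Hspa4l (-0.46, SE 0.0337) were lower and Hspa2 (0.87, SE 0.0717) higher. Among 8 exchange factors and handover partners, 6 fell and 2 rose, beside 32.6% and 33.8% of all genes. Stip1, which links Hsp70 to Hsp90, fell by 0.68 (SE 0.0306), Stub1, a chaperone-bound ubiquitin ligase whose exons overlap Jmjd8 on the opposite strand, fell by 0.51 (SE 0.0344), and Bag1 rose by 0.47 (SE 0.0322).

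In mitochondria, 10 of 13 chaperone and protease genes fell and none rose, with a median of -0.38. The 76.9% called in this list stands beside 66.3% of all genes called, 32.6% lower. Hspa9, the mitochondrial Hsp70, fell from 875 and 883 CPM to 588 and 586 CPM (-0.58, SE 0.0276). The proteases Htra2 (-0.59, SE 0.0447, with opposite-strand overlaps) and Lonp1 (-0.38, SE 0.0344) fell as well. These falls were smaller than those of Hspd1 and Hspe1, whose 95% intervals (-1.70 to -1.56 and -1.34 to -1.18) lay below the lowest value of the list, -0.59. Of 3 heat shock factors and regulators, Hsbp1, which binds heat shock factor 1, rose by 0.37 (SE 0.0430), and neither Hsf2 (0.016) nor Hsf4 (0.086) was called. The called network genes named here had adjusted p-values of at most 2.58e-09, other than Unc45a.

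Between 4-PBA and DMSO, 3 of the 75 network genes were called, 1 higher and 2 lower, against 4.9% of all genes. Hspa9 stood at 588 and 586 CPM with DMSO and at 539 and 541 CPM with 4-PBA, lower in both libraries by 8.04% (log2 fold change -0.12, SE 0.0276, adjusted p 0.00578). Lonp1 was lower by a similar amount (-0.13, SE 0.0347, adjusted p 0.0251) and Hsbp1 was higher (0.15, SE 0.0421, adjusted p 0.0269). None of these 3 calls held when either 4-PBA library was left out, at adjusted p-values of 0.154 and 0.133 for Hspa9 and log2 fold changes of -0.12 and -0.12. Lonp1 (-0.13 and -0.12, adjusted p 0.184 and 0.236) and Hsbp1 (0.14 and 0.16, adjusted p 0.236 and 0.141) lost theirs likewise. Lonp1 was also not called without day 0 replicate 1 (adjusted p 0.0516) or DMSO replicate 1 (0.0854) or by the DESeq2 Wald test (0.0607), nor Hsbp1 without DMSO replicate 1 (0.167) or by DESeq2 (0.0634). Lowest and highest adjusted p over the alternatives were 0.00121 and 0.154 for Hspa9, 0.00475 and 0.236 for Lonp1 and 0.00297 and 0.236 for Hsbp1. Unc45b was lower in both 4-PBA libraries without being called (-0.25, SE 0.0716, adjusted p 0.0533).

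The small heat shock proteins with Bag3 and the folding chaperones of the endoplasmic reticulum are given for comparison. Of 8 genes in the former, 4 were called higher and 1 lower with DMSO than at day 0, and Hspb1, the most abundant, stood at 770 against 758 CPM (log2 fold change 0.022, adjusted p 0.516). Of 12 reticulum genes, 7 fell and 2 rose. The shares called, 62.5% and 75%, were near the 66.3% of all genes. For the reticulum genes the median of -0.16 was smaller in size than the -0.64 of the heat shock chaperones. Hsp90b1, the reticulum form of Hsp90, fell by 0.38, and Hspa5, the reticulum Hsp70, was not called (0.0065, adjusted p 0.871). Between 4-PBA and DMSO none of the small heat shock genes and 1 of the reticulum genes was called, namely Sdf2l1, from a mean of 15.8 to 19.6 CPM (0.31, adjusted p 0.00979). The differences between these groups of genes were not tested.

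The genes whose pattern lay closest to each chaperone were found among 9682 other genes with a mean of at least 10 CPM, by Euclidean distance between log2 CPM centred over the 6 libraries. They were Dut (0.064) and Nop56 (0.097) for Hspd1, Snrpa1 (0.062) and Lin54 (0.091) for Hspe1, and C1qbp (0.044) and Snrpf (0.053) for Hsph1. For Hsp90aa1 they were Ddx18 (0.033) and the chaperonin gene Cct6a (0.041), and for Hsp90ab1 Larp1 (0.011) and Rps10 (0.028). Idh3a and Lgals1 lay closest to Hspa8, Stoml2 and Eif3g to Dnajb1, Psmb2 and Aars to Hsf1, E2f5 and Hyal2 to Hspa1b, and Stard10 and Trappc6a to Hspa1a. Between 184 (Hsph1) and 6383 (Hspa1a) of these genes lay closer to a chaperone than its nearest fellow chaperone. Each chaperone had far fewer fellows than the 9682 other genes. These counts therefore do not show whether the chaperones resemble each other. Hspd1 and Hspe1, which share a promoter, were 0.489 apart, and Hspa1a and Hspa1b were 1.02 apart.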

How the data were processed

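The authors deposited a table of raw counts, a row for each gene symbol and a column for each of the 6 libraries. The submitters' processing notes name GRCm39, and per the labels' protocols the library kit was directional. The aligner, counter, annotation and strand setting are not given in the sources used here. GENCODE M21 and RefSeq sequences (GRCm38) therefore served only for lengths, overlaps, near-identical copies and promoter letters.

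Counts were filtered with filterByExpr, scaled by TMM and fitted in edgeR 4.0.16 (R 4.3.3) with a mean per group over all 6 libraries and robust glmQLFit (3 residual degrees of freedom). Benjamini-Hochberg adjustment covered all 17433 genes tested, and the threshold was 0.05. SE is the log2 fold change divided by the square root of F. Replicates differed by more than sampling noise (chi-square per degree of freedom 3.98 to 7.15). The fit was tested on simulated data for 4-PBA against DMSO. Of 50 genes changed 1.25-fold, 41 were called, and all 50 were called at 1.5-fold. With no gene changed, 16 of 16961 genes were still called, more than an adjusted p under 0.05 should let through. The calls between 4-PBA and DMSO can therefore include false ones, to an extent that was not tested.

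Alternatives used DESeq2 1.42.0 and limma 3.58.1, other scalings, filters and thresholds, a replicate block, and leaving out each library. BLAST 2.17.0 found near-identical copies (at least 95% identity over 300 bases) in GENCODE M21. Named network genes were up to 3 per list and comparison with the smallest adjusted p among called genes. The 10 genes and the lists were chosen with earlier results of these data known. Figures used matplotlib 3.10.9.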

Additional observations from a re-analysis of the deposited data

How the results depend on the processing

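Over 16 alternatives, between 9 and 10 of the 10 chaperone genes were called in DMSO against day 0, between 9 and 10 in 4-PBA against day 0, and 0 in 4-PBA against DMSO. Of 474 alternative values of single chaperone genes, 460 kept their direction and their side of the threshold. The 12 that turned direction were all differences near 0 between 4-PBA and DMSO. With library size only these were Hsp90aa1 (0.0047) and Hsp90ab1 (0.0054). The other 10 came from leaving out 1 library, which gave ranges of -0.069 to 0.024 for Hspa8, -0.016 to 0.0071 for Hsp90aa1, -0.020 to 0.012 for Hsp90ab1, -0.077 to 0.022 for Hspd1, -0.034 to 0.090 for Hspe1, -0.0025 to 0.023 for Hsph1, -0.00031 to 0.097 for Dnajb1 and -0.073 to 0.014 for Hsf1. The summed Hspa1 copies, whose alternatives were chosen after seeing the data, lay between -0.27 and -0.083 against day 0 with 4-PBA when 1 library was left out.

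The 3 network genes called between 4-PBA and DMSO became 5 with no filter, 5 with the replicate block, 1 with the DESeq2 Wald test and 1 at an adjusted p under 0.01; leaving out 1 library gave 0 to 7, with 0 without either 4-PBA replicate and 7 without DMSO replicate 1. The cause was not tested. Deviations of same-numbered libraries had correlations of -0.012, -0.028 and -0.0031 between groups, so no shift shared by replicate number was seen. These correlations cannot show whether same-numbered libraries were handled together. Over all genes the block called 768 genes in place of 855. Where 1 library was left out, the lone library of its group was assumed to vary like the others. The low counts of Hspa1a limit its precision.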
